A study of Zeugodacus cucurbitae with 6 samples.

Results

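The set of immune-type serine proteases described here consists of 5 genes of the melon fly Zeugodacus cucurbitae out of 12834 in the deposited table, and each was found by its identifier. LOC105213841 is named serine protease persephone-like in the study, LOC105213509 modular serine protease-like, LOC105213670 venom protease and LOC105213671 venom protease-like, where all 4 names were matched to identifiers by the order in which the study lists them. Prss44_0 carries the symbol of a serine protease known from the testis of the mouse. The genes were chosen because they were higher in irradiated larvae, so their difference between the groups is given as a description. Where a test called them, the call carries no weight of its own. Their names come from similarity, and no protein sequence was analysed here, so a catalytic or regulatory domain was not checked.

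Serine proteases are made as inactive zymogens, and in insect haemolymph they activate each other in cascades that end in the cutting of Spätzle, the ligand of the receptor Toll, or in the activation of prophenoloxidase for melanin deposition. In Drosophila, the modular serine protease ModSP stands near the start of the cascade that follows the recognition of microbial cell walls, whereas Persephone is activated by proteases that microbes secrete. Inhibitors of the serpin family restrain both branches.

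RNA was sequenced from whole 3rd instar larvae in 2 groups. The irradiated group hatched from eggs about 25 h old that had received 50 Gy of gamma radiation from cobalt-60 at 1.0 Gy per minute, and the non-irradiated group from eggs that had received 0 Gy. Both groups were raised on the same artificial diet, and the labels give neither sex nor strain. Each group had 3 replicates, each a pool of 20 larvae, so values are averages over tissues and animals, and 1.5 µg of RNA per pool was selected for poly-A tails and read as 150 bp pairs.

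The libraries held 17191722 to 18311658 counts on genes in the irradiated group and 13192748 to 16344295 in the non-irradiated group, so that 1 count stood for 0.0546 to 0.0758 CPM (a gene's counts relative to its library's sum). Irradiated replicates 1 and 2 were unusually alike, with a Spearman correlation of 0.992 across genes against 0.955 to 0.982 in the other 14 pairs of libraries. Counting noise alone did not account for their differences, whose standardized squares averaged 2.86 over genes, against at least 88.4 in the other pairs (about 1 would be counting noise alone). They were kept as separate libraries, and values with both summed into 1 library are given where they change a call. Of the marker genes listed for larval tissues, the table names few: 2 of 12 fat body symbols, 1 of 13 haemocyte symbols and 0 of 17 gut symbols, so the tissue makeup of the pools could not be checked.

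The study designed quantitative PCR primers for 4 of the 5 genes and used them on the RNA that was sequenced. It reported no significant difference between PCR and sequencing levels for its tested genes. The primers are shown because they are the only stretches of these transcripts at hand. The counts given here come from sequencing reads over each gene and not from these primers. Each is given 5′ to 3′, with the 5 bases at the 3′ end, from which the polymerase extends, in capitals.
LOC105213841 forward: ggacggagatgccgtATTTA
LOC105213841 reverse: tgtatcaacgatgccACGAT
LOC105213509 forward: aataagcgattccggGCTAT
LOC105213509 reverse: ctgttttgacacccaCATGC
LOC105213670 forward: tgaacgcttcgttttGACTG
LOC105213670 reverse: aagcgggttgaacatAGTCG
LOC105213671 forward: aatttccaccagctgCTTTG
LOC105213671 reverse: ccacatcatctttcgTGGTG
Over the 24 pairs of primers from different genes, the longest run of bases in common was 8. This compares the primers as written and says nothing of how alike the full transcripts are. How the counting treated reads that fit more than 1 related protease gene is not given in the sources used here, so counts of similar genes may be affected.

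Persephone-like (LOC105213841) was nearly absent from non-irradiated larvae and abundant in irradiated larvae. It had 8257, 8801 and 31912 counts in the irradiated libraries, against 3, 3 and 4 counts in the non-irradiated libraries. In FPKM (counts scaled by gene length and library total) this was 201, 201 and 755 in the irradiated libraries and 0.0953, 0.0890 and 0.103 in the non-irradiated libraries. The lowest irradiated library stood 1954-fold above the highest non-irradiated library. The non-irradiated counts were near the floor of 3 counts per library, so the size of the ratio rests on 10 counts in all. The ratio of the summed counts, scaled for library size, was 4063. Counting error alone puts it between 2209 and 8472 (95%, exact binomial).

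Modular serine protease-like (LOC105213509) had a low but measurable level without irradiation. Its counts were 8779, 9296 and 24527 in the irradiated libraries and 109, 146 and 207 in the non-irradiated libraries, or 747 ± 472 FPKM and 9.72 ± 2.05 FPKM (SD, n = 3 libraries each). All irradiated libraries were above all non-irradiated libraries, by at least 40.0-fold. The log2 fold change of irradiated over non-irradiated larvae was 6.26 with a standard error of 0.54, and it lay between 5.62 and 6.50 when each library was left out in turn.

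The venom protease pair, LOC105213670 and LOC105213671, lies side by side in the gene order of the assembly idZeuCucr1.2, with no annotated gene between them. LOC105213670 had 2513, 2674 and 4697 counts in the irradiated libraries and 241, 177 and 165 counts in the non-irradiated libraries. LOC105213671 had 3666, 3940 and 6961 counts in the irradiated libraries and 311, 248 and 408 counts in the non-irradiated libraries. Neither gene had overlapping groups, and their log2 fold changes were 3.80 (standard error 0.32) and 3.65 (standard error 0.29). In the irradiated libraries, of which replicates 1 and 2 were unusually alike across genes, the FPKM of LOC105213671 was 1.57, 1.58 and 1.59 times that of LOC105213670. In non-irradiated larvae the same ratio was 1.39, 1.50 and 2.66, from far lower counts, and non-irradiated replicate 3 accounted for most of that spread.

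Prss44_0 had the widest spread of the set among the non-irradiated libraries. It had 1347, 1386 and 3128 counts in the irradiated libraries and 848, 234 and 195 counts in the non-irradiated libraries. Non-irradiated replicate 1 was 4.87-fold above the lowest non-irradiated library and came close to the irradiated libraries, the lowest of which was 1.30-fold higher after normalisation. The coefficient of variation of normalised CPM (scaled with TMM factors) was 51.3% in the irradiated and 86.8% in the non-irradiated libraries. The log2 fold change was 1.91 with a standard error of 0.68, and it was 2.90 without non-irradiated replicate 1 and 1.40 without irradiated replicate 3.

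**Figure D1:**
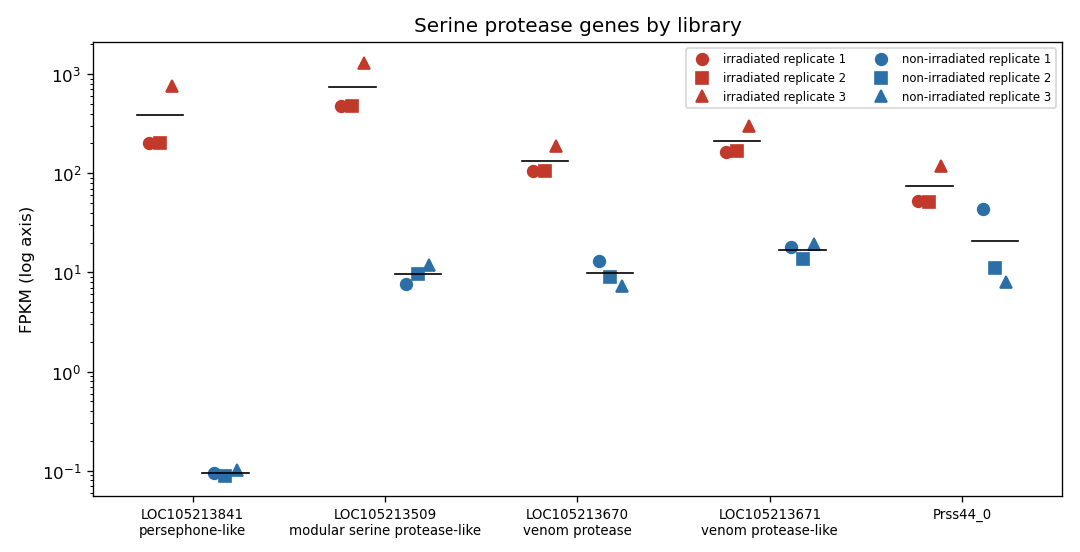
FPKM on a log axis for the 5 serine protease genes, with irradiated libraries left of non-irradiated libraries, 1 point per library and a black line at the mean of 3. Irradiated replicate 3 is the highest library for every gene, and only for Prss44_0 does a non-irradiated library, replicate 1 at 43.3 FPKM, come close to irradiated libraries 1 and 2 at 52.8 and 51.0 FPKM.

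In edgeR's quasi-likelihood test over 9768 genes, 4 of the 5 genes were called higher at a Benjamini-Hochberg adjusted p under 0.05, where 2.14% of all tested genes were called higher. Prss44_0 was not called. Among all tested genes 1.6% were called lower and 3.74% in either direction. With irradiated replicates 1 and 2 summed, the same 4 genes were called where 0.202% of all tested genes were called higher, and DESeq2 called 5 of the 5 where it called 4.9% higher. The groups did not overlap for 5 of 5 genes, and irradiated libraries were higher without overlap for 15% of all tested genes. Since the genes were picked from this comparison, these counts describe the choice and carry no weight of their own. By log2 fold change the genes ranked 2, 12, 28, 30 and 126 among all tested genes.

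Per length, the order of the levels was the same in each irradiated library: LOC105213509, LOC105213841, LOC105213671, LOC105213670 and Prss44_0. Across the irradiated libraries the FPKM of LOC105213509 ranged from 474 to 1293 and that of LOC105213841 from 201 to 755, so these neighbours in the order overlapped. LOC105213671 ranged from 164 to 303 FPKM, LOC105213670 from 105 to 190 and Prss44_0 from 51.0 to 119, and each overlapped the gene before it. In non-irradiated larvae the order was different. Prss44_0, at 8.04 to 43.3 FPKM, overlapped LOC105213671 at 13.5 to 19.2 FPKM, LOC105213670 at 7.24 to 13.1 FPKM and LOC105213509 at 7.71 to 11.8 FPKM, while LOC105213841 stood far below them all.

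The set as a whole took 0.143%, 0.143% and 0.402% of the counts in the irradiated libraries, against 0.0115%, 0.00572% and 0.00599% in the non-irradiated libraries. Its makeup differed as well. LOC105213841 supplied 33.6%, 33.7% and 44.8% of the set's counts in the irradiated libraries and 0.198%, 0.371% and 0.409% in the non-irradiated libraries. Prss44_0 supplied 5.48%, 5.31% and 4.39% in the irradiated libraries and 56.1%, 29.0% and 19.9% in the non-irradiated libraries. By counts, the set in irradiated larvae was mostly the persephone-like and modular types, and in non-irradiated larvae mostly the venom protease pair and Prss44_0.

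The irradiated replicates were not alike. Irradiated replicate 3 exceeded the mean of irradiated replicates 1 and 2 by 3.70-fold for LOC105213841, 2.68-fold for LOC105213509, 2.26-fold for Prss44_0, 1.81-fold for LOC105213671 and 1.79-fold for LOC105213670. Between irradiated replicates 1 and 2 the largest departure was that of Prss44_0, with a ratio of 0.969. All 5 genes were more than 1.5-fold higher in irradiated replicate 3, against 6.16% of the 9768 tested genes and 30.7% of the 205 other genes called higher in irradiated larvae. The genes were picked as higher in libraries that include irradiated replicate 3, so this count carries no weight of its own. The genes with the larger log2 fold changes, LOC105213841 and LOC105213509, also had the highest ratios in irradiated replicate 3, and without that library their log2 fold changes were 11.01 and 5.62.

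Irradiated replicate 3 also stood apart in 1 gene of the fat body list, Yp3_0, and through it in the sum of that list. The summed level of the listed genes was 318, 329 and 45.0 normalised CPM in the irradiated libraries and 237, 185 and 382 in the non-irradiated libraries, and none of the 3 genes was at 0. The low sum came from Yp3_0, a yolk protein gene, at 298, 307 and 22.7 normalised CPM in the irradiated libraries and 215, 156 and 362 in the non-irradiated libraries. The other 2 fat body genes, Yp3_1 and Adh_3, were at 13.2 and 9.12 normalised CPM in irradiated replicate 3, within their range in the other libraries. Summed over the 4 Ance genes of the haemocyte list, the level was 374 to 419 normalised CPM in the irradiated and 416 to 471 in the non-irradiated libraries. Of these, Ance_0 stood at 155 to 160 normalised CPM in the irradiated libraries and 196 to 243 in the non-irradiated libraries, without overlap (log2 fold change -0.51, adjusted p = 0.0893 in edgeR and 0.0102 in DESeq2), and the other 3 overlapped. Over all tested genes, irradiated libraries were lower without overlap for 13.4%. Whether a difference in tissue makeup or age between the pools has a part in the protease levels was not tested, and in whole larvae more cells of a type and more RNA per cell cannot be told apart.

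**Figure D2:**
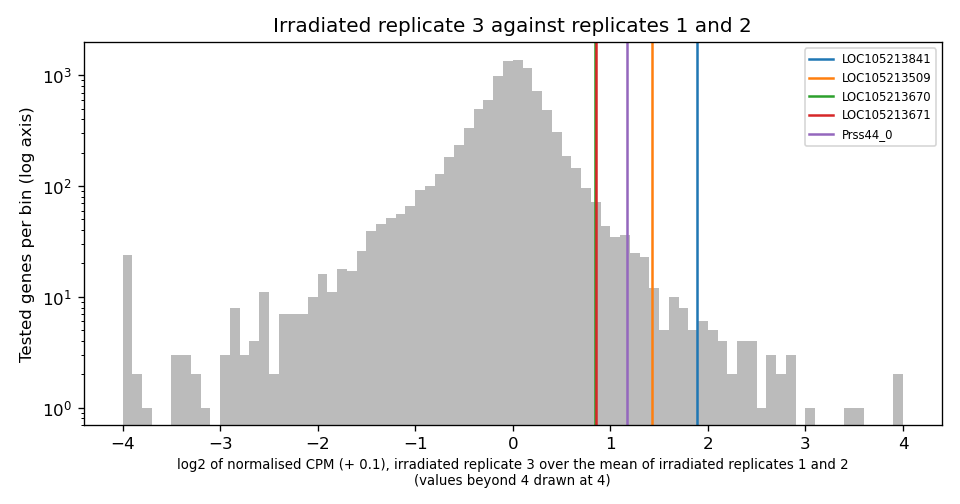
Histogram of the log2 ratio of normalised CPM (with 0.1 added) in irradiated replicate 3 over the mean of irradiated replicates 1 and 2, for 9768 tested genes on a log count axis, with coloured lines for the 5 proteases. All 5 lines lie to the right of 0, with LOC105213841 furthest right at 3.70-fold and LOC105213670 and LOC105213671 nearest to each other at 1.79-fold and 1.81-fold.

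Serine proteases outside the set could be found only by symbol, and those with a number for a name were not identified. The table names 3 genes outside the set by symbols chosen for this family, and 1 of the 2 that passed the count filter was called, in the opposite direction. Of all tested genes, 1.6% were called lower. Prss44_1, which has the same base symbol as Prss44_0 and lies 21 places from it in the gene order, had 67, 57 and 109 counts in the irradiated libraries and 478, 213 and 451 counts in the non-irradiated libraries. It fell to 3.94, 3.15 and 6.14 normalised CPM in irradiated larvae, against 33.2, 16.0 and 28.0 in non-irradiated larvae. On the log2 scale the change was -2.54 ± 0.35 (standard error), at an adjusted p of 0.0210 in edgeR's quasi-likelihood test. The groups did not overlap, with irradiated libraries lower, as for 13.4% of all tested genes. The call was lost with irradiated replicates 1 and 2 summed (adjusted p = 0.0917) and without irradiated replicate 1 (adjusted p = 0.0932) or 2 (adjusted p = 0.0797) in the same edgeR test. The ratio of Prss44_0 to Prss44_1 in FPKM was therefore 20.3, 24.6 and 29.0 in the irradiated libraries and 1.79, 1.11 and 0.437 in the non-irradiated libraries. That the ratio did not overlap between the groups is no separate result. Prss44_0 was picked as higher, and Prss44_1 is shown as called lower, in the same libraries.

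**Figure D3:**
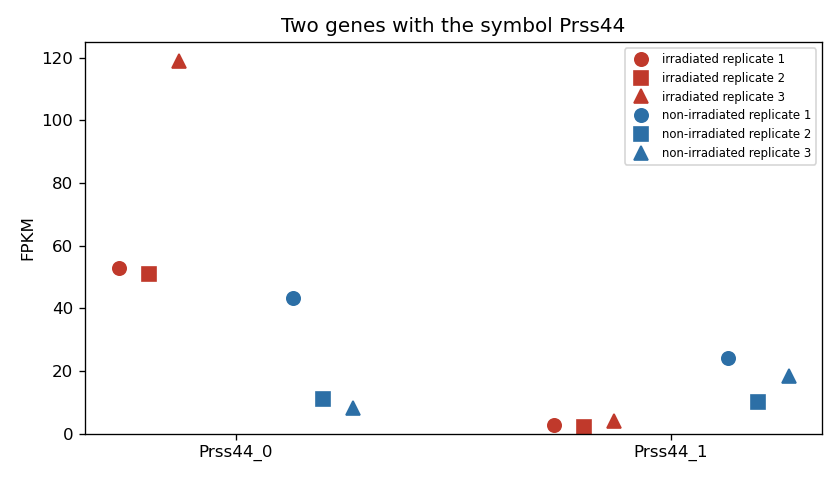
FPKM of Prss44_0 and Prss44_1 in each library, with irradiated libraries left of non-irradiated libraries and 1 point per library. Prss44_0 is higher in every irradiated library than in any non-irradiated library, whereas Prss44_1 is at 2.08 to 4.11 FPKM in irradiated and 10.1 to 24.2 FPKM in non-irradiated libraries.

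The symbol Sb belongs in Drosophila to Stubble, a membrane-bound serine protease of leg and wing shaping, and 5 genes of the table carry it. With these included, 6 serine proteases outside the set were tested. Prss44_1 was the only one called, where 3.74% of all tested genes were called in either direction. The median log2 fold change of the 6 was -0.04, against -0.01 over all tested genes. Sb_9 was abundant in every library, with 1069, 1067 and 1367 normalised CPM in the irradiated libraries and 807, 863 and 760 in the non-irradiated libraries. Its groups did not overlap, with irradiated libraries higher, as for 15% of all tested genes. Its log2 fold change of 0.53 (standard error 0.16) had an adjusted p of 0.120 in edgeR and 0.0225 in DESeq2. The level of the 3 other tested Sb genes overlapped between the groups. Sb_0 and Tmprss6_0 had at most 6 counts in any library and were not tested. The base symbols were compared with a list that was widened to Sb after the names in the table had been seen.

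Downstream of the proteases, the list of cascade genes had 99 symbols, of which 3 matched 4 genes (Spz_1, Tl_13, Tl_6 and Pli_1), and 0 of these were called higher or lower in edgeR's test, with 2 at an unadjusted p under 0.05, as were 2050 of all 9768 tested genes. After the names in the table had been seen, the list was widened to 8 genes of the Toll and Imd pathways. None of the 8 was called by edgeR, while 3 had an unadjusted p under 0.05, to be read beside the same 2050 of 9768. Their median log2 fold change was 0.24. Spz_1, named for the ligand Spätzle that the protease cascade cuts in Drosophila, had 30.3, 29.9 and 24.5 normalised CPM in the irradiated libraries and 29.1, 12.8 and 27.3 in the non-irradiated libraries, with overlapping groups. The receptor gene Tl_13 was at 63.1, 68.0 and 112 normalised CPM in the irradiated libraries and 41.0, 30.7 and 39.2 in the non-irradiated libraries. Its log2 fold change of 1.13 (standard error 0.25) had an adjusted p of 0.0556 in edgeR, 0.0474 in edgeR without a filter and 0.00127 in DESeq2, and it shared the high level in irradiated replicate 3. Tl_6, of the same receptor symbol, stood at 2.25 to 2.88 normalised CPM in the irradiated libraries and 3.67 to 6.61 in the non-irradiated libraries without overlap (log2 fold change -0.87, adjusted p = 0.133 in edgeR). Rel_1, named for the transcription factor Relish of the Imd pathway, stood at 11.2 to 13.9 normalised CPM in the irradiated libraries and 7.23 to 9.06 in the non-irradiated libraries, also without overlap (log2 fold change 0.55, adjusted p = 0.104 in edgeR). Over all tested genes, irradiated libraries were lower without overlap for 13.4% and higher without overlap for 15%. Tlr13_1, Pli_1, Tak1_0 and Dredd_2 overlapped between the groups. None of the 31 serpin symbols looked for matched the table, so the inhibitors of the cascade were not analysed here.

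**Figure D4:**
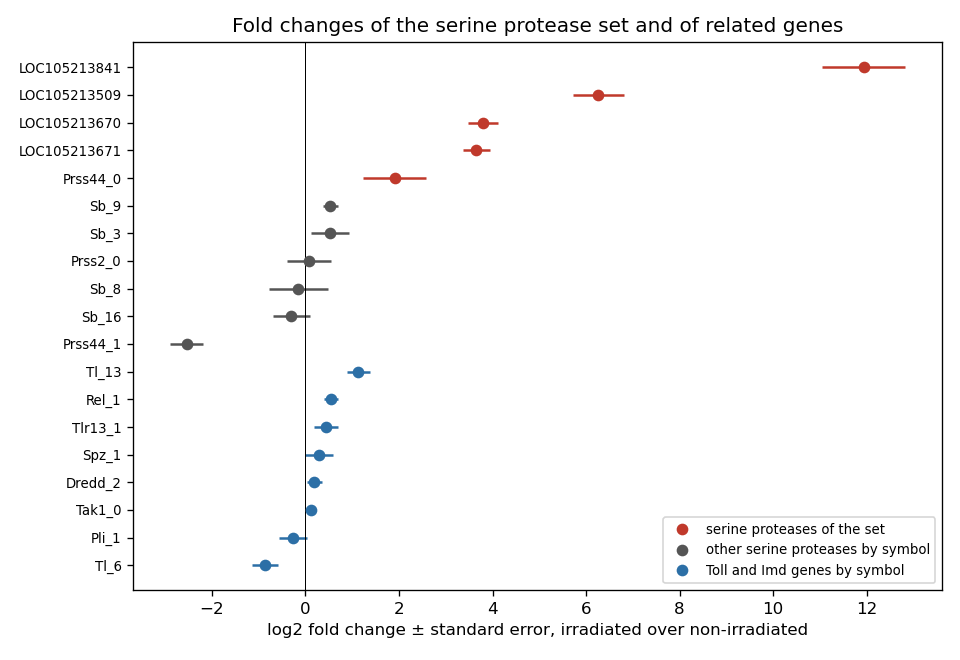
Log2 fold change of irradiated over non-irradiated larvae with its standard error from edgeR, for the 5 proteases of the set, 6 other serine proteases and 8 Toll and Imd genes named by symbol. The 5 proteases range from 1.91 to 11.94, all other genes from -2.54 (Prss44_1) to 1.13 (Tl_13).

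The genes that lie beside the set were examined next. Up to 3 genes on each side of each protease in the assembly idZeuCucr1.2 gave 24 neighbours outside the set, of which 18 were in the deposited table and 13 were tested. Of these 13, 2 were called higher and 0 lower in edgeR's test, or 15.4% higher against 2.14% of all tested genes, and the median log2 fold change was 0.07. Both calls lie beside the genes of the set with the smaller fold changes.

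LOC105213672, the closest tested gene after the venom protease pair, had 333, 244 and 623 counts in the irradiated libraries and 46, 51 and 66 counts in the non-irradiated libraries. On the log2 scale it rose by 2.61 ± 0.37 (standard error), at an adjusted p of 0.0210 in edgeR's quasi-likelihood test. LOC105216866, next to Prss44_0, had 3823, 4111 and 16180 counts in the irradiated libraries and 121, 126 and 231 counts in the non-irradiated libraries. It rose by 5.40 ± 0.72 (standard error) on the log2 scale, at an adjusted p of 0.0219 in edgeR. It was 4.03-fold higher in irradiated replicate 3 than in the mean of irradiated replicates 1 and 2. Both genes are known only by a number and have no role given in the sources used here. With irradiated replicates 1 and 2 summed, both had an adjusted p of 0.0559 in edgeR. The call of LOC105213672 was also lost without irradiated replicate 1 or without any 1 of the non-irradiated replicates (adjusted p from 0.0518 to 0.0728), and that of LOC105216866 without irradiated replicate 1 or 2 or non-irradiated replicate 1 or 2 (adjusted p from 0.0558 to 0.0786). Near the venom protease pair, Orct2_2 and LOC105213674 were higher in irradiated libraries without overlap, as were 15% of all tested genes, and were not called. Their log2 fold changes were 1.38 and 0.42 (adjusted p = 0.111 and 0.170 in edgeR).

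Around LOC105213841 and LOC105213509 no tested neighbour was called. Of these neighbours, 2 had lower values in irradiated libraries without overlap, as had 13.4% of all tested genes. LOC105213835, near LOC105213841, had 18, 19 and 9 counts in the irradiated libraries and 28, 27 and 54 counts in the non-irradiated libraries (log2 fold change -1.48, adjusted p = 0.0957 in edgeR). Huti_3, next to LOC105213509, had 74, 71 and 53 counts in the irradiated libraries and 140, 116 and 88 counts in the non-irradiated libraries (log2 fold change -1.08, adjusted p = 0.0747 in edgeR). LOC105213841 overlaps the span of Adar_1, named for an enzyme that edits adenosine in RNA. Adar_1 had 113, 109 and 133 counts in the irradiated libraries and 126, 101 and 103 counts in the non-irradiated libraries. The 2 groups of Adar_1 overlapped (log2 fold change -0.17, adjusted p = 0.625 in edgeR). How reads of the 2 genes were told apart depends on the strand setting, which is not given in the sources used here. LOC105213511, near LOC105213509, had 66355, 71937 and 102226 counts in the irradiated libraries and 58537, 49149 and 49277 in the non-irradiated libraries, with a log2 fold change of 0.33 and an adjusted p of 0.426 in edgeR. LOC105213510, between them, had 3, 5 and 5 counts in the irradiated libraries and 0 in each non-irradiated library, too few for the test.

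**Figure D5:**
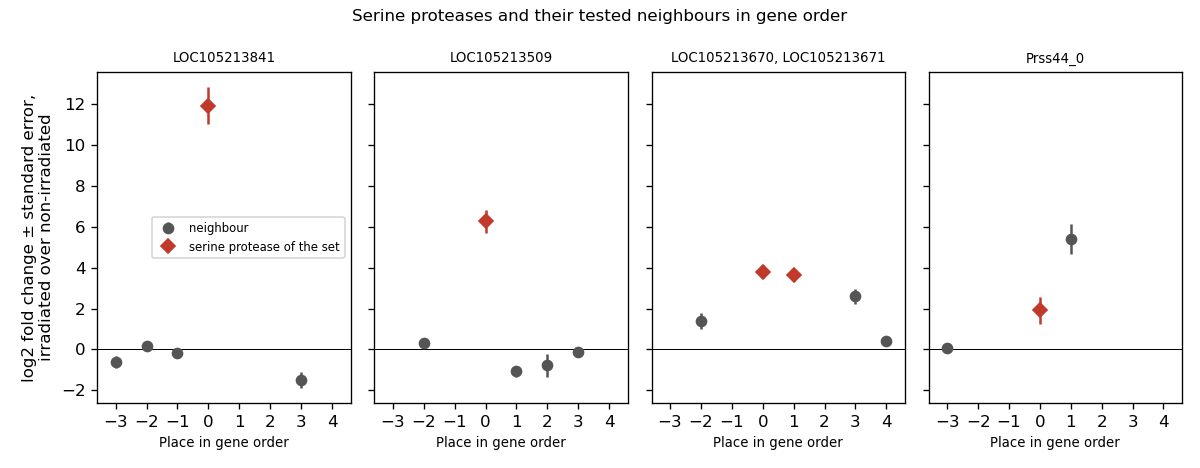
Log2 fold change with its standard error from edgeR against the place in gene order, for each protease (red, at place 0, with the adjacent LOC105213671 at place 1) and its tested neighbours (grey, up to 3 places from either gene of the set). Neighbours of LOC105213841 and LOC105213509 lie between -1.48 and 0.33, while LOC105213672 at 2.61 and LOC105216866 at 5.40 stand above 0 beside the venom protease pair and Prss44_0.

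For each gene of the set, the tested genes with the most similar profile were looked up by the distance between log2 levels (normalised CPM plus 0.1, centred on each gene's own mean) over the 6 libraries. As the libraries are those that chose the set, these genes are given as a description. Nearest to LOC105213841 was LOC105213847, a vitellogenin, or yolk protein precursor, by the same match of order, at a distance of 2.27 where the median over all genes was 13.8. It had 12529, 13054 and 32822 counts in the irradiated libraries and 6, 0 and 11 counts in the non-irradiated libraries. LOC105213849 followed at 2.98, with 10188, 11356 and 130750 counts in the irradiated libraries and 0, 1 and 1 in the non-irradiated libraries. The next was LOC105215154, ctenidin-3-like by the same match and named for a glycine-rich antimicrobial peptide of spiders, at 3.40.

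The profile of LOC105213509 was closest to those of LOC105212135 (distance 0.96), LOC105215628 (1.20) and LOC114805347 (1.35), none of which has a name in the sources used here. LOC105213670 was closest to LOC105214204, LOC105215733 and Cd109_2, at distances of 0.57 to 0.62. Cd109_2 is named for a protein of the thioester family to which insect complement-like proteins belong, and had 15663, 16233 and 39270 counts in the irradiated libraries and 2086, 1642 and 1036 counts in the non-irradiated libraries. LOC105213671 was closest to LOC105215733, LOC105215147 and LOC105208801, so LOC105215733 stood among the nearest genes of both venom proteases. Within the set, the venom proteases were 0.74 apart, nearer than any other pair, and LOC105213841 and Prss44_0 were furthest apart at 11.2.

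Prss44_0 was closest to LOC105217268, at a distance of 0.35. LOC105217268 had 204, 169 and 532 counts in the irradiated libraries and 129, 36 and 28 counts in the non-irradiated libraries, the same high non-irradiated replicate 1 that Prss44_0 had. LOC105210459 and LOC105221315 followed at 0.71 and 0.91, and non-irradiated replicate 1 was their highest non-irradiated library as well, at 41 and 100 counts.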

How the data were processed

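The measurements were RNA-seq gene counts from 3 irradiated and 3 non-irradiated pools of 20 larvae. The authors filtered the reads, aligned them with HISAT2 and counted them per gene with HTSeq (version 0.6.1p2 in the submitters' processing notes, another version in the methods), and deposited raw counts. The deposited FPKM values were computed by the authors from these counts, the library totals and the gene length. The strand setting is not given in the sources used here, and the methods describe the replicates of each group as separately prepared dishes of eggs. The p-values measure the spread between the libraries. Whether irradiated replicates 1 and 2, which were unusually alike, come from separate pools was not tested. If they do not, the spread of the irradiated group is understated and the p-values are too small.

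The comparison was run on all genes in edgeR (4.0.16, under R 4.3.3), with TMM normalisation, filterByExpr, a robust prior, the quasi-likelihood test and Benjamini-Hochberg adjustment. Of the alternatives, DESeq2 (version 1.42.0) and limma (version 3.58.1) on log2(FPKM + 1) and log2(FPKM + 0.1) used other tests, and the rest changed the normalisation, the filter, the robust prior, the replicate block, or the libraries used. The scripts were tested on simulated counts. Standard errors were derived from the size of the log2 fold change and the root of its F value. Distances between profiles used log2(normalised CPM + 0.1).

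The genes and lists were chosen with earlier results of these data known. The genes to name were the 5 proteases, up to 3 neighbours on each side, the 3 nearest profiles of each, and called genes of the lists. The symbol Dl was left out of the pathway list, since without case it can mean Delta or dorsal, as was Sp4_1, a transcription factor by name. A planned definition of the protease and serpin families by protein sequence was replaced by symbols. Gene order was read from the assembly idZeuCucr1.2, which holds 11831 of the 12834 identifiers. It is not the build of the deposited files, and coordinates are therefore left out. A count of 1 was worth 0.0546 to 0.0758 CPM, and the floor was 3 counts per library.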

Additional observations from a re-analysis of the deposited data

How the results depend on the processing

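With DESeq2, 554 genes were higher and 480 lower at an adjusted p under 0.05, against 209 and 156 in edgeR, and with irradiated replicates 1 and 2 summed, 20 were higher and 5 lower. Leaving out each library in turn gave 18 to 162 higher and 3 to 154 lower genes. No pairing by replicate number was seen. The same-numbered libraries had correlations of -0.01, -0.09 and -0.15 between their deviations from the group means, and no sample correlated best with its own number. With 3 libraries per group and irradiated replicates 1 and 2 so alike, these correlations cannot exclude a pairing. With the replicate number as a block, 54 genes were higher and 35 lower. LOC105213509, LOC105213670 and LOC105213671 were called higher under each of the 16 alternative settings run. LOC105213841 was called in all but the filter of at least 10 counts in every library, which removes it. Prss44_0 was called in DESeq2 alone, which called 5 of the 5 genes. Across the settings 18 to 554 genes were called higher, or 0.202% with irradiated replicates 1 and 2 summed and 4.9% in DESeq2. As the 5 genes were picked from this comparison in the same libraries, their calls describe the choice and carry no weight of their own. The log2 fold change of LOC105213841, 11.94 in edgeR, was 8.16 with limma on log2(FPKM + 1) and 10.64 on log2(FPKM + 0.1). In these 2 fits the added constant was large beside its non-irradiated FPKM. With each library left out in edgeR, the log2 fold change lay between 11.01 (without irradiated replicate 3) and 12.24. That of Prss44_0, 1.91 in edgeR, lay between 1.40 and 2.90. The call of Prss44_1, the 1 lower gene among the serine proteases by symbol with or without the Sb genes, was lost (0 genes) with irradiated replicates 1 and 2 summed, and leaving out each library gave 0 to 1. DESeq2 called 1 higher gene (Sb_9) in the list with the Sb genes and 1 (Tl_13) among the cascade and the Toll and Imd genes, and edgeR without a filter called the same 1 (Tl_13) in both. No log2 fold change of the 5 proteases changed direction. Among genes that were not called, the log2 fold change of Yp3_0 (-0.22) was 0.31 when irradiated replicate 3 was left out and 0.17 without non-irradiated replicate 3, that of Prss2_0 (0.08) was -0.28 without non-irradiated replicate 1, and that of Sb_16 (-0.30) was 0.11 without non-irradiated replicate 3. Sb_8 (-0.15) reached 0.27 without non-irradiated replicate 3 and was also above 0 in 4 other settings, and Adh_3, near 0, took both signs. Depth limits the non-irradiated level of LOC105213841, which rests on 3 to 4 counts per library.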

Other observations

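LOC105216867, 5 places after Prss44_0 in the gene order and so outside the rule for neighbours, was named after its values were seen. It had 11170, 11879 and 24618 counts in the irradiated libraries and 2609, 1812 and 2152 counts in the non-irradiated libraries, highest in irradiated replicate 3. It rose by 2.58 ± 0.34 (standard error) on the log2 scale, at an adjusted p of 0.0199 in edgeR's quasi-likelihood test. Its adjusted p was over 0.05 with irradiated replicates 1 and 2 summed (0.0559), with the replicate block (0.0602), and without irradiated replicate 1 or 2 or non-irradiated replicate 2 or 3 (0.0507 to 0.0570). Between these genes, LOC114804510 had 6, 13 and 63 counts in the irradiated libraries and 2, 4 and 0 counts in the non-irradiated libraries, too few for the test. It overlaps LOC105216866 by 123 bases in the assembly idZeuCucr1.2. How reads in that stretch were counted is not given in the sources used here, so the counts of both genes may be affected.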
